A study of Mus musculus with 6 samples.

Results

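The transforming growth factor β (TGF-β) genes described here are the 3 ligands Tgfb1, Tgfb2 and Tgfb3, the 3 receptors Tgfbr1, Tgfbr2 and Tgfbr3, and the 4 latent TGF-β binding proteins Ltbp1, Ltbp2, Ltbp3 and Ltbp4. They were chosen by gene symbol, and all 10 have a row among the 23282 rows of each table. Ink4a-/- murine astrocytes, which the study describes as Ink4a/Arf-/-, were in culture with 10% fetal bovine serum. They carried either pcDNA3.1-puro (control, 3 libraries) or pcDNA3.1-JAG1-puro (JAG1, 3 libraries). Every library thus shares the Ink4a/Arf deletion, the vector backbone and its puromycin resistance gene. The genotype label reads WT for the control libraries and JAG1 overexpression for the others. Cdkn2a, the gene that encodes Ink4a and Arf, had at most 5 reads in any library. The labels do not say whether the libraries came from separate cultures, transfections or clones, and p-values measure the spread between these libraries, which may be technical. Animal age and sex, the time after transfection and the species of the JAG1 insert are not given in the sources used here.

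TGF-β is made as a pro-protein whose cleaved propeptide stays wrapped around the mature dimer and keeps it silent. In the secretory pathway this latent ligand is joined to a latent TGF-β binding protein, which ties it to fibrillin and fibronectin fibres of the matrix until integrins, proteases or thrombospondin release it. The free ligand binds the type II receptor TGFBR2, which recruits and phosphorylates the type I receptor TGFBR1, and TGFBR1 in turn phosphorylates SMAD2 and SMAD3, which enter the nucleus with SMAD4. Earlier work of the same group had placed the JAG1 intracellular domain in a complex with SMAD3, TGIF2 and DDX17.

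Promoter sequence is shown for the receptor with the largest fall, for the pair of latency genes with the most reads, and for the type I receptor, whose level did not pass the test. Each window holds the 250 bases before an annotated start in RefSeq (GRCm38.p6, the build named in the submitters' processing notes), read 5′ to 3′ on the strand of the gene. Capitals mark GTCTG or its reverse complement CAGAC, the core of the SMAD binding element, and TGGGAA or its reverse complement TTCCCA, the core of the element bound by the Notch effector RBPJ; neither pattern overlaps the other. The windows are chr9:116175364-116175613 (minus strand) for Tgfbr2, chr17:75178531-75178780 (plus strand) for the start number 2 of Ltbp1, chr19:5740650-5740899 (plus strand) for Ltbp3 and, on the plus strand, chr4:47352972-47353221 and chr4:47385966-47386215 for the starts number 1 and 2 of Tgfbr1. The window of the start number 1 of Ltbp1, which ends inside the RefSeq span of the gene, is not printed. The printed windows of the start number 2 of Ltbp1 and of Tgfbr1 lie wholly inside the RefSeq spans of their genes.
Tgfbr2: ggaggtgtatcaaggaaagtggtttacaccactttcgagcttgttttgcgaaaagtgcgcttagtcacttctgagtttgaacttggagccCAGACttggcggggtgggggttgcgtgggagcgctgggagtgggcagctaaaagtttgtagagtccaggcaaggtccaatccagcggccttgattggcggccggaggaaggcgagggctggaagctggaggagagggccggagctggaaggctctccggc
Ltbp1 start 2: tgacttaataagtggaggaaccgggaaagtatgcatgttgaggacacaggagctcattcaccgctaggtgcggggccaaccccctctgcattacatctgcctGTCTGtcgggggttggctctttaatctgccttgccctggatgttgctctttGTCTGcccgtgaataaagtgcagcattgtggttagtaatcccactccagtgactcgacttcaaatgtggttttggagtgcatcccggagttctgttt
Ltbp3: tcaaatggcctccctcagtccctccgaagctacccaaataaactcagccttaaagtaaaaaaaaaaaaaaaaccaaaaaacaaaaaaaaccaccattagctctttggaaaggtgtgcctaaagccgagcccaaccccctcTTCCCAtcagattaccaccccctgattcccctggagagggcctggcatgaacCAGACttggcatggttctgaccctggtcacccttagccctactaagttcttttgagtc
Tgfbr1 start 1: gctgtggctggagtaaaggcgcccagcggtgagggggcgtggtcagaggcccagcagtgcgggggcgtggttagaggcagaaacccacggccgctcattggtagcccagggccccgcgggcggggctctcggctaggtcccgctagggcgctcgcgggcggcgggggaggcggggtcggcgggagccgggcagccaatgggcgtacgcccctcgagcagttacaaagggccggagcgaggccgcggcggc
Tgfbr1 start 2: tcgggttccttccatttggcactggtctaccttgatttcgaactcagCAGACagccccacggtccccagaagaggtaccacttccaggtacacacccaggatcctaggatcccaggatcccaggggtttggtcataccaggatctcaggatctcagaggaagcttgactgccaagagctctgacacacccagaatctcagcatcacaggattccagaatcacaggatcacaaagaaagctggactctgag

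The Tgfbr2 window held the SMAD pattern at position −160 relative to the start, and the printed Ltbp1 window held it at −148 and −97, while the window of the other Ltbp1 start held it at −64. The Ltbp3 window held the SMAD pattern at −58 and the RBPJ pattern at −110. For Tgfbr1 the window of start 1 held neither pattern and that of start 2 held the SMAD pattern at −203. Over all 12 windows of the 8 genes with an entry, 7 windows of 6 genes held the SMAD pattern: Tgfb2 and Ltbp2, which did not pass the test, had 2 matches each, and Ltbp4, which rose, had none in its 3 windows. Among 32851 mouse promoter windows of the same length, 42.2% held the SMAD pattern and 21.6% the RBPJ pattern on either strand, so a match is common. No window was found for Tgfb3 and Tgfbr3. The libraries count reads at the 3′ ends of transcripts and do not separate the start sites of a gene.

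Of the 9 genes with enough reads for the test, 3 rose in the JAG1 libraries (Tgfbr3, Ltbp3 and Ltbp4), 3 fell (Tgfb3, Tgfbr2 and Ltbp1), and 3 did not pass the threshold (Tgfb2, Tgfbr1 and Ltbp2). Tgfb1 had too few reads to be tested. The threshold was an adjusted p under 0.05 in edgeR's quasi-likelihood test over 11712 genes. By that rule 55.1% of all tested genes were called, 27.4% as higher and 27.7% as lower, so 6 called of 9 is near the share in the whole table. The median log2 fold change (JAG1 over control) of the 9 genes was −0.03, and that of all tested genes was 0.0039. With a change of at least 1.5-fold also required, 1 gene was higher (Ltbp3) and 3 were lower (Tgfb3, Tgfbr2 and Ltbp1), against 11.9% and 14.6% of tested genes. The groups did not overlap for 7 of the 9 genes, against 62% of all tested genes: the JAG1 libraries lay above for 3 (31.1% of all tested genes) and below for 4 (30.9%). Levels are given in counts per 1000000 reads after TMM scaling of the library totals (CPM). Because the RNA came from whole cultures, fewer cells that express a gene and less RNA per cell cannot be told apart.

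**Figure D1:**
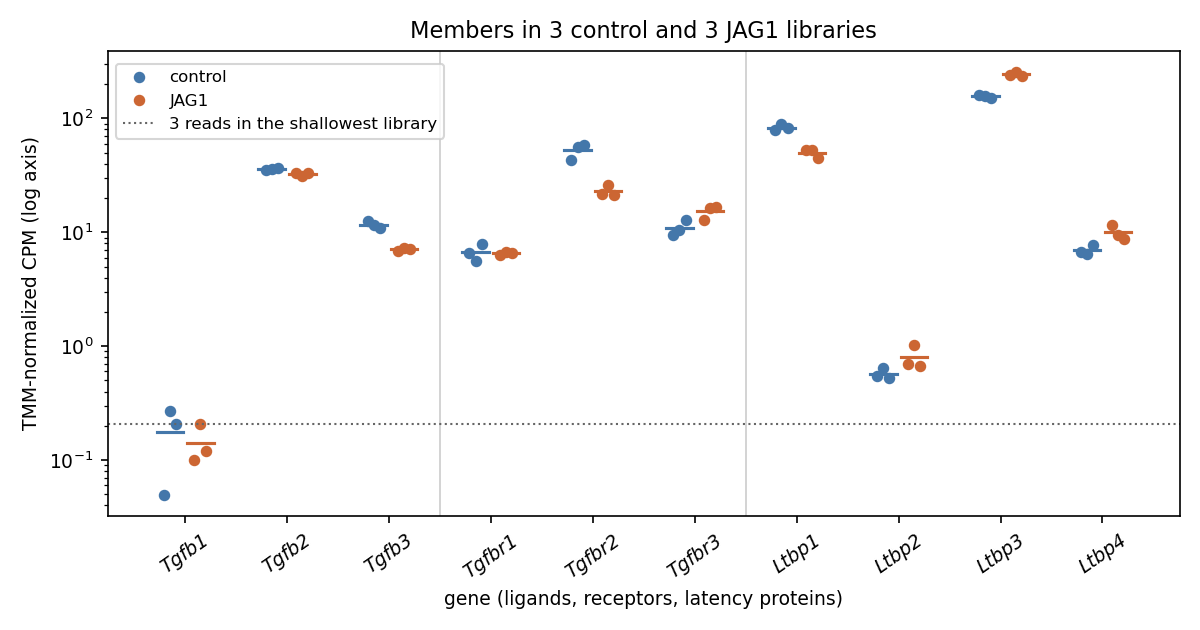
TMM-normalized counts per 1000000 reads (CPM, log axis) of the 10 genes in 3 control (blue) and 3 JAG1 (orange) libraries, with points for libraries, short lines for group means and a dotted line at 3 reads in the shallowest library. The Tgfbr2 and Ltbp1 points of the JAG1 libraries lie wholly below those of the control libraries, the Ltbp3 points lie wholly above them, and Tgfb1 stays near the dotted line.

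Tgfb1 (chr7:25687002-25705077, plus strand), the founding ligand of the family, was almost uncounted. It had 1, 5 and 4 reads in the control libraries and 2, 3 and 2 reads in the JAG1 libraries. These values lie at or near the limit of detection of 3 reads, which corresponds to between 0.148 and 0.206 CPM across the libraries, and no fold change is given. Both genes beside it were well covered, with 743 to 1170 reads per library for B9d2 and 1047 to 1993 for Ccdc97. A difference in Tgfb1 was not detectable at this depth.

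Tgfb2 (chr1:186622787-186709697, minus strand) held most of the ligand reads in every library. This ligand depends on the co-receptor TGFBR3 for strong binding to TGFBR2. Its level was 35.2, 36.2 and 36.9 CPM in the control libraries and 33.3, 31.1 and 32.8 CPM in the JAG1 libraries. Every JAG1 library lay below every control library. The log2 fold change of −0.15 (SE 0.07, 95% interval −0.31 to −0.0015) did not pass the threshold after adjustment by edgeR (adjusted p = 0.0803).

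Tgfb3 (chr12:86056743-86079041, minus strand), a ligand that binds TGFBR2 directly, fell. Its level was 12.6, 11.5 and 10.8 CPM in the control libraries and 6.82, 7.29 and 7.16 CPM in the JAG1 libraries. The lowest control library was well above the highest JAG1 library. The fall was 1.65-fold (log2 fold change −0.72, SE 0.11, edgeR adjusted p = 0.000203), and 12.4% of tested genes fell as much or more. The 3′ end of Tgfb3 lies within Ttll5, a gene of the opposite strand, for 5149 bases in the GENCODE annotation, and the strand setting of the counting is not given in the sources used here. Ttll5 itself had a log2 fold change of −0.04 (edgeR adjusted p = 0.734). The ratio of Ttll5 to Tgfb3 reads was 3.17 ± 0.126 in the control libraries and 5.09 ± 0.0687 in the JAG1 libraries (SD, n = 3 each). Counting of independent reads would give SDs of 0.242 and 0.509. Whether these genes share reads was not tested.

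Summed over the 3 ligands, the level was 47.9 ± 0.0405 CPM in the control libraries and 39.7 ± 0.931 CPM in the JAG1 libraries (SD, n = 3 each; exact permutation p = 0.1, two-sided, the smallest that 3 against 3 libraries can give). Among 8 such values over libraries, those with a raw p of 0.1 had a Benjamini-Hochberg adjusted p of 0.114. The shares of Tgfb3 and Ltbp3 and the ratio of Tgfbr3 to Tgfbr2 were added to the planned values. They are built from genes that were called and give no separate support. The share of Tgfb3 among ligand reads went from 24.3% ± 1.90 to 17.9% ± 0.971 (SD, n = 3 each; exact permutation p = 0.1). The share of Tgfb1 was 0.366% ± 0.236 and 0.362% ± 0.152 (SD, n = 3 each; exact permutation p = 1). The order Tgfb2, Tgfb3, Tgfb1 held in both groups, with no overlap between neighbours in that order. QuantSeq gives about 1 read position per transcript, at its 3′ end, so these levels were not divided by transcript length.

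Tgfbr2 (chr9:116087695-116175363, minus strand), the receptor that binds the ligand first, fell more than any other of the 9 tested genes. Its level was 43.0, 56.2 and 58.9 CPM in the control libraries and 21.6, 25.9 and 21.4 CPM in the JAG1 libraries. Control 1 was the lowest of the control libraries and still lay above all JAG1 libraries. The fall was 2.30-fold (log2 fold change −1.20, SE 0.12, edgeR adjusted p = 8.51e-06), and 6.98% of tested genes fell as much or more.

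Tgfbr1 (chr4:47353222-47414926, plus strand), the kinase that phosphorylates SMAD2 and SMAD3, had 6.56, 5.58 and 7.90 CPM in the control libraries and 6.33, 6.67 and 6.62 CPM in the JAG1 libraries. The JAG1 values lay inside the range of the control values. The log2 fold change was −0.03 with a 95% interval of −0.35 to 0.29 (edgeR adjusted p = 0.860), and it turned positive, at 0.10, without control 3. The ratio of Tgfbr2 to Tgfbr1 reads was 6.55, 10.1 and 7.46 in the control libraries and 3.42, 3.89 and 3.24 in the JAG1 libraries. This ratio was lower in all JAG1 libraries (means 8.03 ± 1.83 and 3.51 ± 0.335, SD, n = 3 each; exact permutation p = 0.1).

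Tgfbr3 (chr5:107106567-107289629, minus strand), the co-receptor betaglycan, rose. Its level was 9.48, 10.4 and 12.9 CPM in the control libraries and 12.7, 16.4 and 16.6 CPM in the JAG1 libraries. The groups overlapped, because control 3 lay just above JAG1 1. The log2 fold change was 0.48 (SE 0.14, edgeR adjusted p = 0.0143). The call was lost when control 2 (adjusted p = 0.0525), JAG1 2 (adjusted p = 0.0587) or JAG1 3 (adjusted p = 0.0646) was left out of the edgeR fit.

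The ratio of Tgfbr3 to Tgfbr2 reads was not a planned value and restates the calls of these genes. There were 0.208 ± 0.0199 reads of Tgfbr3 per read of Tgfbr2 in the control libraries and 0.666 ± 0.0983 in the JAG1 libraries (SD, n = 3 each; exact permutation p = 0.1). The summed level was 70.3 ± 10.5 CPM and 44.8 ± 4.19 CPM (SD, n = 3 each; exact permutation p = 0.1). The order Tgfbr2, Tgfbr3, Tgfbr1 held in both groups, with no overlap between neighbours.

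**Figure D2:**
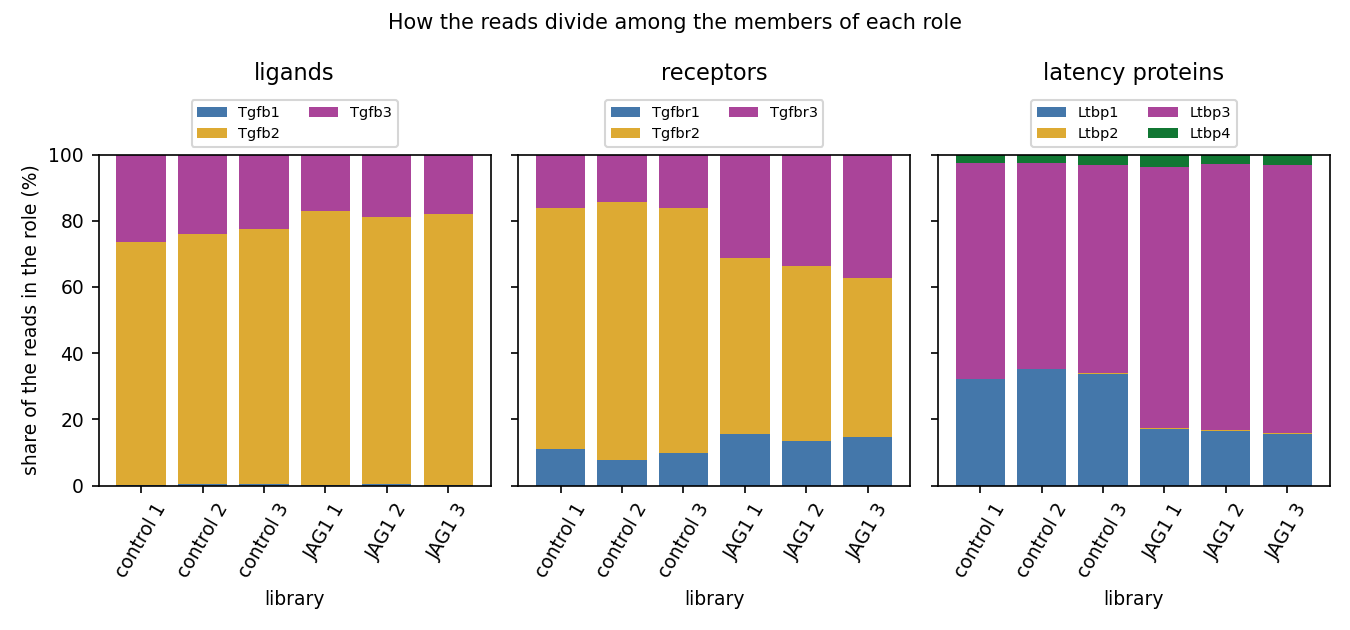
Share (%) of the reads of each role taken by each gene, as stacked bars that sum to 100% in each of the 6 libraries. The JAG1 libraries give a larger part of the receptor reads to Tgfbr3 and of the latency protein reads to Ltbp3 than the control libraries, and Tgfb1 and Ltbp2 are barely visible. Ltbp3 lies on chromosome 19, whose tested genes had a median log2 fold change of 0.61.

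Ltbp1 (chr17:75005480-75392512, plus strand), which carries latent TGF-β to the matrix, fell. Its level was 78.8, 88.5 and 82.0 CPM in the control libraries and 52.8, 52.7 and 45.0 CPM in the JAG1 libraries. The groups were far apart relative to the spread within them. The fall was 1.66-fold (log2 fold change −0.73, SE 0.08, edgeR adjusted p = 1.28e-05), and 12.3% of tested genes fell as much or more.

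Ltbp3 (chr19:5740900-5758536, plus strand), which also binds latent TGF-β and is required for bone and tooth development, was the most counted of the 10 genes and rose. Its level was 160, 156 and 153 CPM in the control libraries and 241, 256 and 235 CPM in the JAG1 libraries. All JAG1 libraries lay above all control libraries. The rise was 1.56-fold (log2 fold change 0.64, SE 0.05, edgeR adjusted p = 1.39e-06), and 11.3% of tested genes rose as much or more.

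The rise of Ltbp3 was close to that of its chromosome. On chromosome 19 the median over 422 tested genes was a log2 fold change of 0.61, and 313 of them were called higher; Ltbp3 lay 0.03 above that median, and 47.6% of the tested genes of the chromosome rose as much or more. The chromosomes of the other tested genes had medians between −0.02 and 0.05.

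Ltbp4 (chr7:27305140-27339720, minus strand), which binds latent TGF-β1 and takes part in elastic fibre assembly, rose. Its level was 6.66, 6.44 and 7.79 CPM in the control libraries and 11.7, 9.56 and 8.80 CPM in the JAG1 libraries. All JAG1 libraries lay above the control libraries. The log2 fold change was 0.53 (SE 0.14, edgeR adjusted p = 0.00715), and 14.3% of tested genes rose as much or more.

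Ltbp2 (chr12:84783212-84876558, minus strand) is a matrix protein of the same family that does not bind latent TGF-β. It had 11, 12 and 10 reads in the control libraries and 14, 15 and 11 in the JAG1 libraries. Scaled to library size, the JAG1 values of 0.70, 1.03 and 0.67 CPM lay just above the control values of 0.54, 0.64 and 0.52 CPM. The log2 fold change of 0.46 had a 95% interval of −0.31 to 1.24 and did not pass the threshold (edgeR adjusted p = 0.285).

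Ltbp3 took 63.3% ± 1.52 of the latency protein reads in the control libraries and 80.0% ± 1.20 in the JAG1 libraries (SD, n = 3 each; exact permutation p = 0.1). The summed level of the 4 genes was 247 ± 4.69 CPM and 305 ± 15.2 CPM (SD, n = 3 each, exact permutation p = 0.1). Most of this sum was Ltbp3, whose mean went from 156 to 244 CPM, a change close to the median of chromosome 19. The mean of Ltbp1 went from 83.1 to 50.2 CPM, that of Ltbp4 from 6.96 to 10.0 CPM and that of Ltbp2 from 0.57 to 0.80 CPM. The order Ltbp3, Ltbp1, Ltbp4, Ltbp2 held in both groups, and neighbours in it did not overlap.

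**Figure D3:**
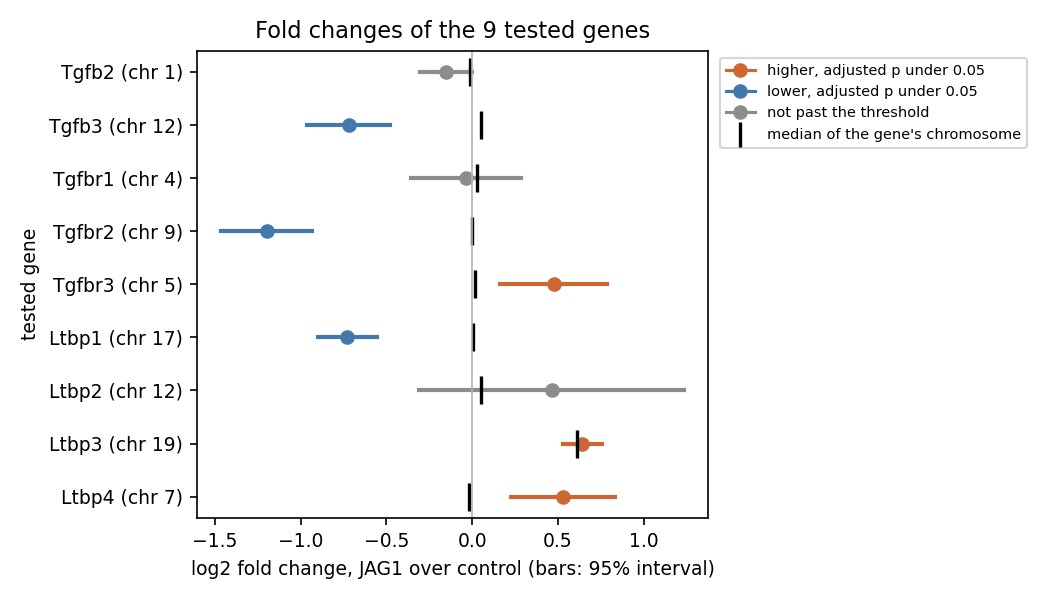
Log2 fold change (JAG1 over control) of the 9 tested genes with 95% intervals, coloured by call (adjusted p under 0.05), and black ticks at the median of all tested genes of the same chromosome. Ltbp3 sits at the median of chromosome 19, 0.61, whereas the ticks of the other genes lie between −0.02 and 0.05.

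The wider pathway was described with 5 lists, of which 82 of 94 genes were tested. In all, 21 rose, 41 fell and 20 did not pass the threshold (75.6% called, against 55.1% of all tested genes), and the median log2 fold change was −0.21. No list was put to a set test.

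Among 20 genes of SMAD signalling, 5 rose and 6 fell (55% called, against 55.1% of all tested genes). The median log2 fold change was −0.15. Smad2 rose (1113, 1035 and 1115 reads in the control libraries, 1447, 1085 and 1136 in the JAG1 libraries; log2 fold change 0.35, SE 0.06, edgeR adjusted p = 0.000535). Smad3 did not pass the threshold (log2 fold change −0.16, SE 0.08, adjusted p = 0.117), and Smad4, the common partner of both, fell by 0.20 on the log2 scale (SE 0.06, adjusted p = 0.0105). Smad6, an inhibitory SMAD, rose from 6.02 ± 0.479 to 13.5 ± 1.68 CPM (log2 fold change 1.17, SE 0.13, adjusted p = 1.40e-05), while for Smad7, the inhibitory SMAD that acts on TGF-β receptors, the values were 11.1 ± 1.13 and 11.4 ± 1.69 CPM (adjusted p = 0.854; SD, n = 3 each, edgeR). The ubiquitin ligases Smurf2 and Wwp1 rose (log2 fold changes 0.62 and 0.47) and Smurf1 fell (−0.43). Both corepressors of SMAD complexes, Ski and Skil, fell (−0.62 and −0.40). Of the other genes of that complex, Ddx17 fell by 0.21 on the log2 scale (SE 0.05, edgeR adjusted p = 0.00599), and Tgif2 had a log2 fold change of −0.16 (adjusted p = 0.0729); Ddx17 lies on chromosome 15, whose tested genes had a median of −0.53.

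Of 12 accessory receptor genes, 11 were tested, 3 rose and 6 fell (81.8% called, against 55.1% of all tested genes). Endoglin (Eng), a co-receptor of the same family as betaglycan, rose from 69.9 ± 3.49 to 90.1 ± 4.99 CPM (log2 fold change 0.37, SE 0.07, edgeR adjusted p = 0.000624; SD, n = 3 each). Tgfbrap1, which binds the receptor complex, also rose (0.35, SE 0.10, adjusted p = 0.0118), as did Bambi, a decoy receptor, from 1, 5 and 6 reads to 14, 13 and 13 reads. Nrp1, which binds both latent and active TGF-β1, fell from 156 ± 5.10 to 98.8 ± 7.39 CPM (log2 fold change −0.66, SE 0.06, adjusted p = 5.34e-06). Dab2, an adaptor between receptors and SMADs that lies on chromosome 15, and Vasn, a secreted trap of TGF-β, fell as well (log2 fold changes −0.65 and −0.58). The median of the list was −0.24.

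Among 18 genes for proteins that process or release latent TGF-β, 13 were tested, 4 rose and 7 fell. That is 84.6% called, against 55.1% of all tested genes, with a median log2 fold change of −0.27. The metalloproteinase Mmp9, which can cleave the latent complex, had 57, 56 and 58 reads in the control libraries and 2, 0 and 1 in the JAG1 libraries, which is at least 14.3-fold lower against a floor of 3 reads in the shallowest library. Mmp2 went from 66, 90 and 81 reads to 10, 10 and 7 reads (log2 fold change −2.94, SE 0.28, edgeR adjusted p = 4.47e-06). Plau, the urokinase that makes plasmin, went from 104, 98 and 108 reads to 15, 6 and 17 reads (−2.84, SE 0.24, adjusted p = 2.26e-06). In the other direction, Adamts1 rose from 22.8 ± 1.48 to 73.9 ± 3.13 CPM (1.69, SE 0.07, adjusted p = 8.37e-09; SD, n = 3 each), Plat by a log2 fold change of 0.93 and the integrin chain Itgav by 0.48. Lrrc32, which holds latent TGF-β on the surface of regulatory T cells, had 0 reads in every library, and the integrin chains Itgb6 and Itgb8, which partner Itgav in freeing TGF-β, had at most 5 and 3 reads.

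The matrix proteins that anchor the latent complex or bind the ligand showed the lowest median of the lists, −1.58, against 0.0039 over all tested genes. Of 14 genes 9 were tested, 8 fell and 1 rose (100% called, against 55.1% of all tested genes). Mfap5, a microfibril protein, went from 53, 28 and 48 reads to 6, 0 and 5 reads (log2 fold change −3.33, SE 0.50, edgeR adjusted p = 0.000180). Decorin (Dcn), a proteoglycan that binds TGF-β, went from 44, 32 and 53 reads to 5, 7 and 1 reads (−3.09, SE 0.44, adjusted p = 0.000127). Fbln5 fell by 2.58 on the log2 scale (SE 0.31, adjusted p = 3.58e-05). Fibrillin-1 (Fbn1), to which the latent complex is tied, fell from 26.6 ± 1.04 to 13.7 ± 1.79 CPM (SD, n = 3 each), a change chosen for mention after its values were seen. The gene that rose was Efemp2 (0.35, SE 0.07, adjusted p = 0.00180), which is on chromosome 19 and below the median of that chromosome.

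**Figure D4:**
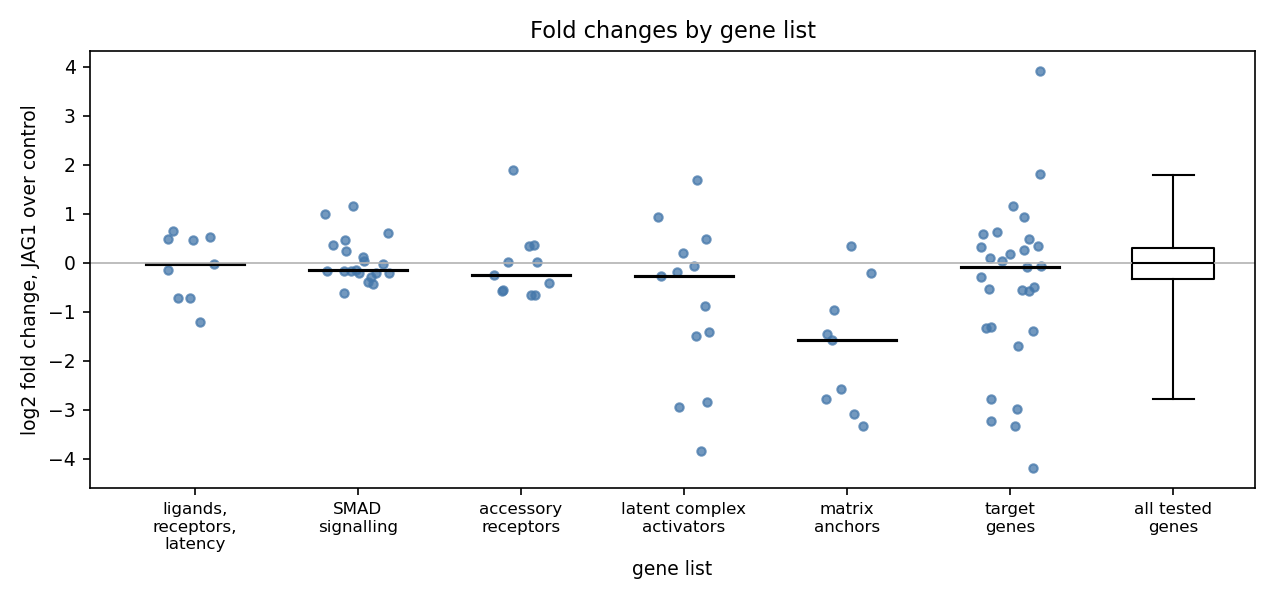
Log2 fold change (JAG1 over control) of each tested gene (points) in the 9 ligand, receptor and latency genes and in 5 pathway lists, with a line at each median; the box holds the middle quartiles of all 11712 tested genes and its whiskers the central 95%. The matrix anchors have the lowest median, −1.58, which includes genes with enough reads in the control libraries only, and Mmp9 is drawn at its bound of 14.3-fold.

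Genes widely used as readouts of TGF-β receptor activity moved both ways. Of 30 genes 29 were tested, 8 rose, 14 fell and 7 did not pass the threshold. That is 75.9% called, against 55.1% of all tested genes, with a median log2 fold change of −0.09. Tgfbi, a matrix protein named for its induction by TGF-β, went from 530, 422 and 455 reads to 30, 17 and 21 reads (log2 fold change −4.18, SE 0.14, edgeR adjusted p = 1.02e-09). Ctgf, a matricellular protein, went from 26491, 37296 and 43235 reads to 3995, 2463 and 3024 reads (−3.33, SE 0.17, adjusted p = 2.91e-08). Control 1 was the lowest control library for Ctgf, as it was for Tgfbr2, which fell, and for Plat, which rose. Lox, which cross-links collagen, went from 9516, 8457 and 9293 reads to 962, 720 and 855 reads (−3.24, SE 0.06, adjusted p = 2.27e-11). In contrast, Col1a2, a chain of type I collagen, rose from 70, 71 and 53 reads to 1067, 804 and 719 reads (3.92, SE 0.13, adjusted p = 1.42e-09), while its partner chain Col1a1 fell (−0.53, SE 0.06, adjusted p = 3.50e-05).

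The transcription factors of the epithelial-to-mesenchymal transition on that list also divided. Snai2 and Zeb2 rose (log2 fold changes 1.80 and 1.17, SE 0.21 and 0.13, both with an edgeR adjusted p of 2.26e-05). Snai1 and Zeb1 fell (−1.39 and −1.31, SE 0.09 and 0.10). Twist1 went from 9.52 ± 1.20 to 11.3 ± 1.66 CPM (SD, n = 3 each), a log2 fold change of 0.26 (SE 0.14) that did not pass the threshold (edgeR adjusted p = 0.128); it passed without JAG1 2 (0.37, adjusted p = 0.0452). For Cyr61 the controls ranged from 5961 to 16115 reads, and the difference did not pass the threshold (log2 fold change 0.34, edgeR adjusted p = 0.313) unless control 3 was left out (0.64, adjusted p = 0.0316). Postn had 0 reads in every library. Snai1, Zeb1, Twist1, Cyr61, Col1a1 and Postn fell outside the rule for naming genes and were chosen after their values were seen.

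**Figure D5:**
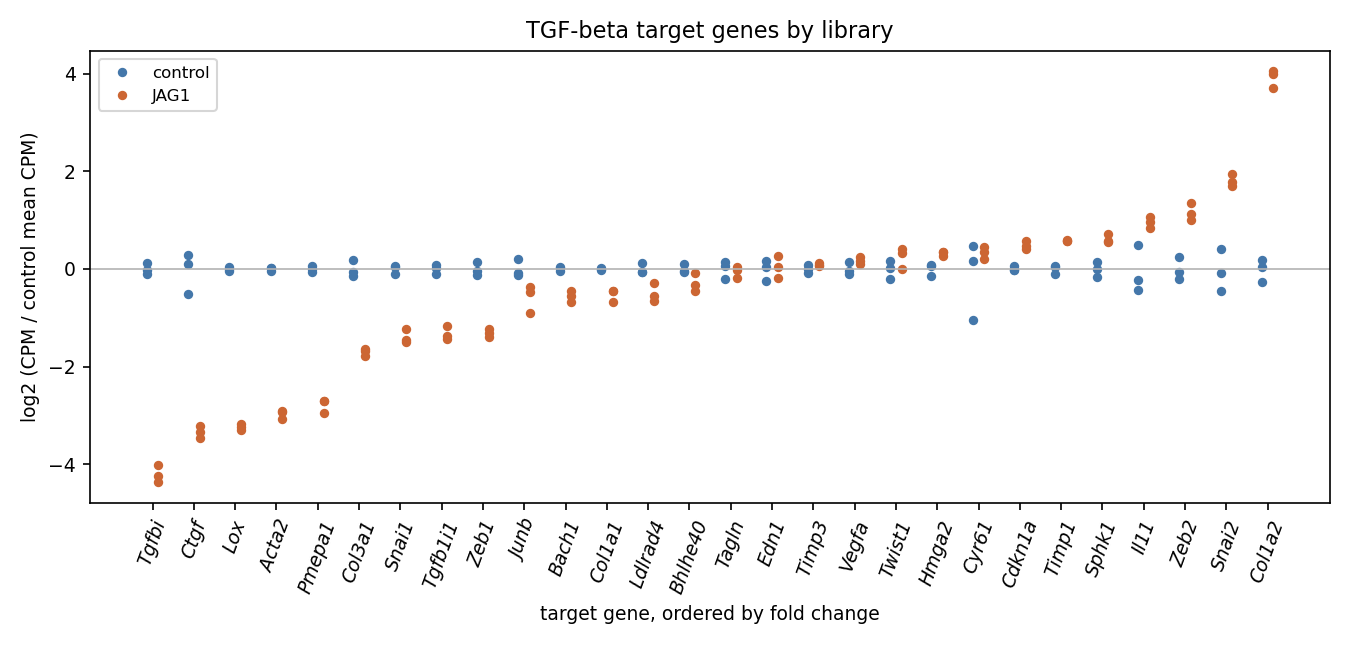
TMM-normalized CPM of 28 of the 29 tested TGF-β target genes in each library, as log2 of the ratio to the mean of the 3 control libraries (control blue, JAG1 orange), ordered by fold change. Genes at both ends, from Tgfbi at −4.18 to Col1a2 at 3.92, have JAG1 libraries far outside the control libraries, and Cyr61 has the widest spread among the control libraries.

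The libraries summed to between 14341634 and 20489062 reads. Jag1 itself had 182, 201 and 214 reads in the control libraries and 304, 197 and 227 in the JAG1 libraries (10.3 ± 1.17 and 14.2 ± 0.862 CPM, SD, n = 3 each; log2 fold change 0.46, SE 0.11, edgeR adjusted p = 0.00446); a 3′ count may not see a vector transcript that ends in vector sequence. The astrocyte label was only in part met by its markers. Gfap and Aqp4 had 0 reads in every library and 5 of 13 markers had at most 3, while Vim had 3104 ± 221 and 3212 ± 38.3 CPM and Gja1 and Sox9 were the next most counted over all 6 libraries. Of 8 tested astrocyte markers 7 fell and 0 rose, against 27.7% and 27.4% of all tested genes; Sox9, for example, fell by 3.33 on the log2 scale. Of 9 fibroblast and pericyte markers 6 were tested, 4 fell and 1 rose, against the same shares, with a summed level of 507 to 554 CPM in the control libraries and 276 to 323 CPM in the JAG1 libraries; their most counted genes, Col1a1 and Col3a1, are also in the target list above, and Lum, Rgs5 and Cspg4 had 0 reads. The summed level was 27.3 to 28.4 and 50.8 to 52.9 CPM for 6 neuronal markers, almost all of it Map2, 5.75 to 6.22 and 3.58 to 4.68 CPM for 9 microglial markers, 1.04 to 1.93 and 4.43 to 4.92 CPM for 6 endothelial markers, of which only Flt1 passed the filter, and 0.523 to 1.18 and 0.243 to 0.697 CPM for 6 oligodendrocyte lineage markers. These sums hold markers that went opposite ways. Of 2 tested neuronal markers Map2 rose and Stmn2 fell, from 69, 45 and 46 reads to 9, 3 and 5 reads. Of 3 tested microglial markers 1 rose, Cd68 did not pass the threshold and Tmem119 fell, from 48, 48 and 34 reads to 1, 2 and 2 reads. Stmn2 and Tmem119 thus had fewer than 10 reads in every JAG1 library. Snap25, Syt1, Dcx, Tek, Olig1, Sox10 and Mog had 0 reads in every library. The part of these marker changes in the results for the TGF-β genes was not tested.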

How the data were processed

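RNA from Ink4a-/- mouse astrocytes was made into QuantSeq 3′ libraries (3 control, 3 JAG1). The authors deposited 1 table per library with raw read counts for 23282 genes and, beside them, normalized counts as log2. The submitters' processing notes name Bowtie2, bedtools, edgeR, GRCm38 and mm10; versions, roles, the annotation and the strand setting are not given in the sources used here. Groups and replicate numbers came from the sample titles. No 2 libraries agreed within sampling noise. Within the groups, control 1 and control 3 lay furthest apart.

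Counts were analysed in R 4.3.3 with edgeR 4.0.16: 11712 genes passed filterByExpr (minimum count 10), libraries were scaled by TMM, and the quasi-likelihood test had no covariate. Adjustment (Benjamini-Hochberg) ran over all tested genes, with a threshold of 0.05. Standard errors came from the F statistic, and intervals are 95%. CPM is TMM-normalized. Values of 1 number per library were compared by an exact permutation test (smallest two-sided p 0.1). Folds against a group at 3 reads or fewer are bounds, and cover counting error only. Library totals set the precision: 3 reads are 0.148 to 0.206 CPM. Alternatives used DESeq2 1.42.0, limma 3.58.1, other scalings, no filter, the deposited log2 values, the replicate number and 1 library left out in turn. The procedure was also run on simulated data with few changed genes and a constant dispersion. Changes as widespread as those found here were not simulated.

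Symbols were matched to RefSeq GRCm38.p6 (22059 directly, 1090 by synonym), which also gave coordinates and promoters; gene overlaps came from GENCODE. Named were Jag1, the 10 genes, Smad2, Smad3, Smad4, Smad6 and Smad7, and of each pathway list the called genes ranked 1 to 3 by rise or by fall, at a mean of at least 1 CPM; markers were named from those at or near 0 and the 2 of each list with the most reads. Outside this rule, Bambi, Tgif2, Ddx17, Lrrc32, Itgb6, Itgb8 and the genes that overlap or neighbour the 10 were named after their values were seen, as were those the text says so of. The genes, lists and tests were chosen with earlier results of these data known. The lists were written from general knowledge. As the strand setting is unknown, the count of a gene may hold reads of a gene on the other strand. Some results on single genes are not reported here.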

Additional observations from a re-analysis of the deposited data

How the results depend on the processing

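The alternatives were DESeq2, library size alone, upper-quartile scaling, limma-voom, no filter on low counts, the deposited log2 values with limma, a term for the replicate number, an added minimum of 1.5-fold, and each library left out in turn. No scaling moved the median log2 fold change of all tested genes beyond −0.02 to 0.02. Tgfb2 passed the threshold under upper-quartile scaling alone (log2 fold change −0.18, edgeR adjusted p = 0.0450). With 1.5-fold also required, 1395 genes were higher and 1711 lower in the whole table, 1 of the 9 TGF-β genes was higher and 3 were lower, and the counts were 2 higher and 1 lower for SMAD signalling, 1 higher and 2 lower for accessory receptors, 2 higher and 6 lower for latent complex activators, 0 higher and 7 lower for matrix anchors and 6 higher and 9 lower for target genes.

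Leaving out 1 library at a time left 2724 to 3256 genes higher and 2792 to 3344 lower, with 2 to 3 of the TGF-β genes higher and 3 lower. Tgfbr3 was the call that was lost, in 3 of the 6 fits. The log2 fold change of Tgfbr1 ranged from −0.15 to 0.10, the positive value being that without control 3. The difference in the Tgfb1 share of ligand reads ranged from −0.136 to 0.0918 percentage points and changed sign in 4 of the 6, at 1 to 5 reads per library. For 49 further genes named in the text, whose alternatives were added after seeing the data, 626 of 637 values kept direction and call. With 1 library left out, the log2 fold change ranged from −0.084 to 0.13 for Smad7, below 0 without control 1 or JAG1 2, and from −0.12 to 0.035 for Ttll5, above 0 without control 1; neither was called. Tgif2 passed under upper-quartile scaling (−0.18, adjusted p = 0.0476), and Acvr2b lost its call under DESeq2 (adjusted p = 0.0766) and without control 1, control 2, JAG1 1 or JAG1 3 (adjusted p = 0.108, 0.0586, 0.104 and 0.117). Depth limits Tgfb1 and Ltbp2 most.

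Control and JAG1 libraries share the replicate numbers 1 to 3. Deviations from the group means of libraries with the same number had correlations of 0.148, 0.0614 and 0.119. Each library correlated best with the library of the other group that had its own number. The labels do not say whether the number marks a shared culture or preparation, and pairing was not tested. With the replicate block 3380 genes were higher and 3331 lower, against 3211 and 3247 without it, with 3 TGF-β genes higher and 3 lower.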

Other observations

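The activin branch of the family uses SMAD2 and SMAD3 as TGF-β does, through other ligands and receptors. A list of 14 of its genes was chosen after the values of the TGF-β genes were seen. Of these, 8 were tested, 2 rose and 3 fell, against 27.4% and 27.7% of all tested genes.

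Inhba, which encodes the chain of activin A, had 279, 366 and 444 reads in the control libraries and 783, 719 and 712 in the JAG1 libraries. It rose from 18.9 ± 4.77 to 43.9 ± 5.25 CPM (SD, n = 3 each; log2 fold change 1.22, SE 0.16, edgeR adjusted p = 5.71e-05). Fst, the secreted inhibitor follistatin that binds activin, had 964, 1160 and 1465 reads in the control libraries and 5369, 4652 and 4645 in the JAG1 libraries. It rose from 62.1 ± 14.5 to 290 ± 27.1 CPM (SD, n = 3 each; log2 fold change 2.22, SE 0.14, edgeR adjusted p = 1.50e-07). Ligand and inhibitor thus rose together in all JAG1 libraries.

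Fstl1, a secreted protein related to follistatin, fell from 195 ± 39.5 to 49.8 ± 2.14 CPM (SD, n = 3 each; log2 fold change −1.97, SE 0.12, edgeR adjusted p = 1.43e-07). Gdf11, a ligand that follistatin also binds, fell by 0.92 on the log2 scale (SE 0.20, edgeR adjusted p = 0.00269). The receptor Acvr2b fell by 0.78 (SE 0.28, adjusted p = 0.0339) but lost its call under DESeq2 (adjusted p = 0.0766), and the receptors Acvr2a and Acvr1b, with log2 fold changes of −0.09 and −0.26, did not pass the threshold (adjusted p = 0.508 and 0.554). Inhbb, Mstn, Nodal, Acvr1c and Tdgf1 had 0 reads in every library.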
